A study of Mus musculus with 32 samples.

Results

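The mitochondrial respiratory chain genes were followed in mouse mesentery after pristane. The rule takes members by gene symbol and was set with earlier results of these arrays known: every gene whose platform symbol starts with Nduf, Uqcr, Atp5 or Cox4 to Cox8, with Sdha, Sdhb, Sdhc, Sdhd, Cycs and Cyc1, and without Cox7a1 and Cox8b. The rule found 90 of the 18193 genes on the array. Of these, 88 were bright enough to be tested among 13016 genes: 6 core and 27 accessory subunits of complex I, 4 subunits of complex II, 9 of complex III, cytochrome c, 16 genes of complex IV, 17 of complex V, and 8 assembly factors of complex I. Cox7b2 (signals of 0.7 to 46.3) and Ndufb4 (16.5 to 62.5) stayed at or under the dim cut of 103.7 on every array and were not tested. All the members are nuclear genes, and each was represented by its brightest probe set that carries only that gene's symbol.

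The respiratory chain lies in the inner mitochondrial membrane. Complex I takes electrons from NADH and complex II takes them from succinate, and both pass them to ubiquinone. Complex III hands them on to cytochrome c, complex IV reduces oxygen to water, and complex V uses the resulting proton gradient to make ATP. In fat tissue the chain takes up electrons that come from fatty acids and from the TCA cycle. In phagocytes that take up an inflammatory state respiration is known to give way to glycolysis. The nuclear genes of the chain are classically described as targets of the factors NRF1, GABP, YY1, CREB and the oestrogen-related receptors, with the coactivator Ppargc1a above them.

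The promoter windows of 4 members are shown as examples: Sdha, Cycs and Cox8a were lower after pristane in 5, 5 and 4 responses, and Cox7a2l was called in none. These windows do not represent the members, and whether a motif goes with the change of its gene was not tested. Each window runs from 250 bases before to 50 bases after the gene's start, 5′ to 3′ on the gene's strand, as RefSeq gives it for GRCm38.p6. Capitals mark matches, on either strand, to NRF1 (GCGCANGCG) in Sdha and Cycs, to CREB (TGACGTCA) in Cycs and to the ETS motif of GABP (CCGGAAGT) in Cox8a, and the letters of none of the 5 motifs searched occur in the window of Cox7a2l.
Sdha (chr13:74350191-74350490, strand minus): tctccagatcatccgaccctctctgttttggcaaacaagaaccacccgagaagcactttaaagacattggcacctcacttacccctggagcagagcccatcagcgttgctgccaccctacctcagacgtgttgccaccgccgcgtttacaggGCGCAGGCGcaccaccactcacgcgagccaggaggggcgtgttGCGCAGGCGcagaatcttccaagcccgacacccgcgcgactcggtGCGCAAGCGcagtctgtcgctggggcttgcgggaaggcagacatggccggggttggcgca
Cycs (chr6:50566520-50566819, strand minus): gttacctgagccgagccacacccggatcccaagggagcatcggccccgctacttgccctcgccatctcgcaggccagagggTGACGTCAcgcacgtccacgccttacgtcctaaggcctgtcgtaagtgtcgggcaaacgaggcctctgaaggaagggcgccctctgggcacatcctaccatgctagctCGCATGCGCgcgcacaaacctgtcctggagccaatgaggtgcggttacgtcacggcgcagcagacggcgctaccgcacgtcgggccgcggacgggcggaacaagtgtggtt
Cox8a (chr19:7217567-7217866, strand minus): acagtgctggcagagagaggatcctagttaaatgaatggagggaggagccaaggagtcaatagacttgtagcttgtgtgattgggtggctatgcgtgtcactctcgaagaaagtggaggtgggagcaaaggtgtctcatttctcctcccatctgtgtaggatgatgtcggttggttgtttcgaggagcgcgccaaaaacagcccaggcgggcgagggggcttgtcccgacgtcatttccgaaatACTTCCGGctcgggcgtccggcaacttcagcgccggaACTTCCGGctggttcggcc
Cox7a2l (chr17:83514284-83514583, strand minus): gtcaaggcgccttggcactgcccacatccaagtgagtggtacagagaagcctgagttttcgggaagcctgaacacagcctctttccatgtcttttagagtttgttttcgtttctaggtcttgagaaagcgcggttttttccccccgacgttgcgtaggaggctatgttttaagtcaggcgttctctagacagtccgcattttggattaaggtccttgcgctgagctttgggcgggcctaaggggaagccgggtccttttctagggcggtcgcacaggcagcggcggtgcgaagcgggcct
Of the 88 members, 71 had such a window. The NRF1 letters were found in the windows of 20 members (28.2%), against 11.5% of the 14368 array genes with a window. The YY1 letters (AAGATGGCG) were found in 7 members (9.86%) against 2.54%, the ERR letters (TCAAGGTCA) in 2 (2.82%) against 0.404%, and the CREB letters in 4 (5.63%) against 2.94%. The ETS letters were in 5 members (7.04%) and in 6.65% of array genes. The array genes include ones too dim to be tested, while all 71 members were tested, so the 2 sets are not alike. Windows were counted once per motif, whichever strand or number of matches they held, and a match is a stretch of letters and not a bound site.

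Pristane (TMPD) is a hydrocarbon oil that causes lasting granulomatous inflammation of the peritoneum. Treated mice of strain BALB/c, strain DBA or their F1 cross had been given 0.5 ml of it intraperitoneally, and the controls were untreated mice of the same strains prepared alongside. RNA of the mesentery, the fat-rich fold of peritoneum that holds the gut, was measured on 32 Affymetrix arrays, 1 sample each. Mice treated 3 days before gave 3 arrays each of BALB/c, F1 and DBA, and mice treated 18 days before gave 4 of BALB/c and 3 of DBA, beside 7 BALB/c, 3 F1 and 6 DBA controls. The sources used here give no age, no sex and no statement that arrays are separate animals, so p-values measure the spread between these samples. The title codes form 3 series: one with all day 3 arrays and 3 controls of each strain, one with the BALB/c day 18 arrays and 4 controls, and one with the DBA day 18 arrays and 3 controls. What the codes stand for is not stated. Each of the 5 responses sets treated arrays against controls that share both their strain and their code series, so no array serves in 2 responses. A change is a difference of log2(signal + 24.9), which understates the change of dim genes, and "called", "rose" and "fell" mean an adjusted p under 0.05 in limma over all 13016 genes.

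Several measures of the arrays bear on what follows. BALB/c control replicate 2, of the BALB/c day 18 series, stood apart: its highest correlation with any other array was 0.859, against 0.967 to 0.988 for the other 31, and its pancreatic acinar markers averaged 16.91 (log2). It was the highest of the 4 controls of its series for 56 members and the lowest for 23, so the BALB/c day 18 counts of members are given with and without it where they moved, as is each named value whose call it decided and each called one that it moved by over 1.5 times. In F1, Xist, the transcript of the silenced X chromosome in female cells, ran from 12300 to 16800 on the 3 treated arrays and from 55 to 107 on the 3 controls, whereas in each of the other 4 responses the treated and control arrays held the same numbers of arrays high and low in it. Treatment and that difference cannot be told apart within the F1 arrays. The 3′ to 5′ ratio of beta-actin, a measure of RNA and labelling quality, was higher on control than on treated arrays in every response, for example 2.42 ± 0.275 against 1.88 ± 0.3 in BALB/c at day 3 (SD, n = 3 each) and 1.29 ± 0.047 against 1.19 ± 0.0368 in DBA at day 18 (SD, n = 3 each). With that ratio in the fit, the members called lower numbered 51, 44, 50, 49 and 75 in BALB/c, F1 and DBA at day 3 and BALB/c and DBA at day 18. The share of all genes called lower in that fit was not taken.

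Pristane was followed by lower respiratory chain messages in both strains, in their F1, and at both times. In BALB/c at day 3, 65 of the 88 members fell and 0 rose, where 17.2% of all genes tested fell and 18.3% rose. In F1 at day 3, 59 fell and 2 rose, against 18% and 18.6% of all genes. With Xist high or low as a term in the fit, 51 fell and 1 rose. The shares of all genes were not taken for that fit. In DBA at day 3, 58 fell and 0 rose, against 13.4% and 16.4%. At day 18, 66 fell and 1 rose in BALB/c, against 22.2% and 21.7% of all genes, and 76 fell and 1 rose in DBA, against 25% and 22.4%. The median change of the members was -0.52, -0.49 and -0.49 in BALB/c, F1 and DBA at day 3, and -0.50 and -0.69 in BALB/c and DBA at day 18. These are changes of -30.2%, -28.6%, -28.9%, -29.2% and -38.1% in signal plus offset, while the median over all genes lay between -0.04 and 0. The change was moderate in size: only in DBA at day 18 did more than 3 members (19) fall by over 1 log2 unit.

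For most members the treated arrays lay below all controls of their response. Every treated array lay below every control for 77 members in BALB/c at day 3 (27.6% of all genes), 71 in F1 (26.4%) and 70 in DBA (24.4%). The same held for 79 members in DBA at day 18 (32.9% of all genes) and for 57 in BALB/c at day 18 (15.1%), where it held for 64 when control replicate 2 was set aside (25.6%). Without that control the BALB/c day 18 response had 59 members lower, against 25.3% of all genes, with a median of -0.41, and 56 members were called lower both with and without it. A fit of the BALB/c day 18 arrays and their controls alone called 38, and the share of all genes in that fit was not taken. Over the 5 responses, 45 members fell in all 5 (6.95% of all genes did), 16 in 4, 7 in 3, 2 in 2, 10 in 1 and 8 in none. This tally uses the BALB/c day 18 calls made with control replicate 2 and was not taken without it.

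Averaged over the 88 members, each array gave 1 level, and these levels separated treated from control in each response. In BALB/c at day 3 the mean log2 level was 12.06 ± 0.05 on treated and 12.57 ± 0.04 on control arrays (SD, n = 3 each). It was 11.91 ± 0.1 and 12.35 ± 0.08 in F1 and 12.07 ± 0.11 and 12.56 ± 0.07 in DBA at day 3 (n = 3 each). At day 18 it was 12.02 ± 0.07 and 12.46 ± 0.15 in BALB/c (n = 4 each) and 11.99 ± 0.08 and 12.66 ± 0.04 in DBA (n = 3 each). The lowest control array of any response stood at 12.26 (F1) and the highest treated array at 12.16 (DBA at day 3).

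**Figure D1:**
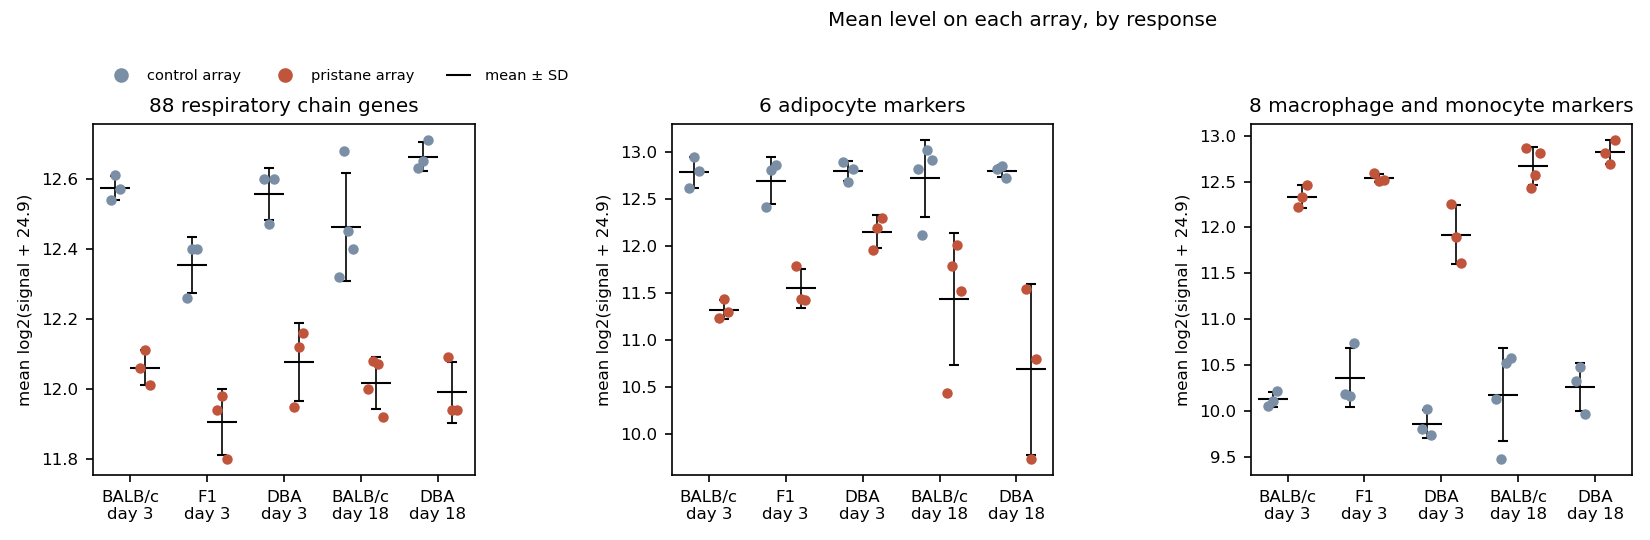
Mean log2(signal + 24.9) on each array of the 88 respiratory chain genes, 6 adipocyte markers and 8 macrophage and monocyte markers, for the 5 responses. Points are arrays and bars are the mean ± SD. The respiratory chain level is lower on every pristane array than on every control array of the same response, from 11.8 to 12.16 against 12.26 to 12.71.

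Cell type markers moved along with the members. The macrophage and monocyte markers (Ptprc, Cd68, Csf1r and others) rose in 8, 7, 8, 8 and 8 of 8 genes over the 5 responses in the order above, and the neutrophil markers in 4, 3, 3, 5 and 5 of 5. The adipocyte markers, among them Adipoq, Plin1 and Lipe, fell in 6, 4, 0, 6 and 6 of 6, with medians of -1.52, -1.13, -0.77, -1.31 and -2.11. Their summed signal, of 6 probe sets, ran from 58500 to 76200 on the BALB/c day 3 controls and from 30400 to 34700 on the treated arrays, and in DBA at day 18 from 58000 to 62700 and from 11300 to 32300. In DBA at day 3, 0 of the 6 adipocyte markers were called. Their median there was -0.77, and their summed signal was 58000 to 69200 on controls and 48200 to 55300 on treated arrays, without overlap. Brown adipocyte markers fell in 1, 2, 3, 3 and 5 of 5 (Cox7a1 and Cox8b are among them). In DBA at day 3 their summed signal was 12500 to 15700 on controls and 2780 to 4910 on treated arrays. Endothelial markers fell in 1, 2, 1, 2 and 4 of 4. Of 3 skeletal muscle markers, 1, 2, 1, 1 and 2 fell. The B and plasma cell markers rose in 2, 3, 1, 3 and 2 of 4 and the T and NK cell markers in 2, 3, 1, 3 and 3 of 4. The summed signal of the B and plasma cell markers ran from 4060 to 9370 on the BALB/c day 18 controls and from 16700 to 21500 on the treated arrays. Of the smooth muscle markers 0, 1, 0, 0 and 0 of 5 fell, and of the intestinal epithelial markers 0, 2, 0, 0 and 1 of 5 fell and 1 rose in BALB/c at day 18. Of 4 mesothelial markers, 1, 0, 0, 1 and 1 fell and 1, 1, 1, 2 and 2 rose. The 5 pancreatic acinar markers were called in no response. No marker of these lists was at 0. Over all genes tested, 17.2%, 18%, 13.4%, 22.2% and 25% fell and 18.3%, 18.6%, 16.4%, 21.7% and 22.4% rose. In a bulk tissue, fewer cells of a type and less RNA per cell cannot be told apart, and the part of the cell mixture in the decline of the members was not tested.

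Complex I, the largest complex of the chain, was lower throughout. Of its 33 subunits tested, 30, 26, 28, 29 and 32 fell in BALB/c, F1 and DBA at day 3 and in BALB/c and DBA at day 18, with medians of -0.58, -0.52, -0.61, -0.52 and -0.73. The 6 core subunits on the array, most of which hold the flavin or iron-sulfur centres that pass electrons on, fell in all cases but 1: Ndufs8 in F1 (-0.20 ± 0.13, SE; adjusted p = 0.24). Ndufs1, the large iron-sulfur subunit near the NADH entry, had the largest decrease of the core in 4 of the 5 responses. The signal of Ndufs1 was 5699, 5202 and 5312 on the BALB/c controls of day 3 and 2764, 3343 and 2740 on the BALB/c day 3 arrays, 4615, 5184 and 4928 against 2448, 2310 and 2294 in F1, and 6542, 5832 and 5697 against 2474, 3356 and 3133 in DBA. At day 18 it was 5229, 1914, 5079 and 4826 on the BALB/c controls against 2043, 2751, 2528 and 2586 on the treated arrays, and 5606, 5114 and 5918 against 2578, 1775 and 2285 in DBA. Every treated array was below every control except in BALB/c at day 18, where control replicate 2, at 1914, was the lowest of the 8 arrays. The changes were -0.87 ± 0.23, -1.05 ± 0.23, -1.01 ± 0.23, -0.68 ± 0.20 and -1.33 ± 0.23 in the order above (SE; adjusted p from 2.9e-05 to 0.0067), and without that control the BALB/c day 18 change was -1.03 ± 0.11. Ndufv1, which binds NADH and the flavin, had log2 changes of -0.74, -0.78, -0.82, -0.71 and -1.08. Ndufs3, a subunit of the arm that leads to ubiquinone and the largest decrease of the core in BALB/c at day 18, had log2 changes of -0.66, -0.46, -0.77, -0.73 and -1.01, with every treated array below every control in each response. That rank rested on control replicate 2: without it Ndufs1 (-1.03) and Ndufv1 (-0.75) fell more in BALB/c at day 18 than Ndufs3 (-0.67).

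The accessory subunits, which surround the core and are needed for its assembly and stability, fell in 24, 21, 22, 23 and 26 of 27, and the 23 of BALB/c at day 18 were 20 without control replicate 2. Ndufab1, the mitochondrial acyl carrier protein, had the largest decrease in BALB/c and F1 at day 3 and in DBA at day 18. The signal of Ndufab1 was 9872, 11010 and 10930 on the BALB/c controls of day 3 and 5618, 5888 and 5116 on the BALB/c day 3 arrays, 7221, 9329 and 9845 against 5056, 5021 and 4180 in F1, and 11970, 9726 and 10920 against 5237, 6360 and 6334 in DBA. The day 18 values were 8802, 9171, 9813 and 9118 on the BALB/c controls against 4518, 5985, 5774 and 4995 on the treated arrays, and 10760, 10670 and 10940 against 4890, 3535 and 4138 in DBA. In all 5 responses the highest treated array was below the lowest control. The changes were -0.93 ± 0.13, -0.88 ± 0.13, -0.86 ± 0.13, -0.80 ± 0.11 and -1.37 ± 0.13 (SE; adjusted p from 3.1e-09 to 1.4e-05). Ndufs5, a small subunit on the intermembrane space side, had the largest decrease in DBA at day 3 (-0.90 ± 0.12), from 5447, 4664 and 5222 on controls to 2329, 2861 and 3053 on treated arrays. Ndufa10, of the membrane arm, had it in BALB/c at day 18 (-0.81 ± 0.11), from 7900, 6955, 7846 and 7469 to 3318, 4862, 4899 and 4212. Other accessory subunits that fell in all 5 responses included Ndufa9 (-0.63, -0.73, -0.88, -0.75 and -1.02), Ndufa5 (-0.76, -0.76, -0.71, -0.57 and -1.09) and Ndufb8 (-0.46, -0.59, -0.62, -0.75 and -1.04). Ndufb1 fell in no response and was called higher in F1 and in BALB/c at day 18.

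Complex II, succinate dehydrogenase, has 4 nuclear subunits and also works in the TCA cycle. Sdha, its flavoprotein, Sdhb, its iron-sulfur protein, and Sdhd, a membrane anchor, fell in all 5 responses, and Sdhc, the other anchor, fell in DBA at day 18. The signal of Sdha was 7510, 7470 and 9933 on the BALB/c controls of day 3 and 4801, 5079 and 3829 on the BALB/c day 3 arrays, 8167, 10150 and 9540 against 5405, 4913 and 5433 in F1, and 11430, 11810 and 12330 against 5355, 7458 and 7264 in DBA. For day 18 it read 10390, 8254, 10330 and 9251 on the BALB/c controls against 4211, 6302, 6822 and 5695 on the treated arrays, and 12500, 12000 and 12980 against 7607, 5342 and 6583 in DBA. The groups did not overlap in any response. The changes of Sdha were -0.86 ± 0.16, -0.82 ± 0.16, -0.84 ± 0.16, -0.75 ± 0.14 and -0.95 ± 0.16 (SE; adjusted p from 2.6e-05 to 0.00031). Sdhb had log2 changes of -0.84, -0.42, -0.84, -0.75 and -0.82 and Sdhd of -0.52, -0.45, -0.67, -0.67 and -0.74, again with all treated arrays below all controls. Sdhc had log2 changes of -0.40, -0.28, -0.39, -0.01 and -0.69, and the treated arrays were below the controls in 4 responses although 1 was called (-0.69 ± 0.24, adjusted p = 0.019). In BALB/c at day 18 the Sdhc controls read 7549, 2302, 6719 and 6752, and the treated arrays 4964, 5880, 5201 and 5128. Control replicate 2, at 2302, was the only control below them, and without it the change was -0.40 ± 0.07 (SE; adjusted p = 4.6e-05).

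Complex III fell in 7, 7, 7, 7 and 8 of 9 members. Uqcrfs1, the Rieske iron-sulfur protein, had the largest decrease in F1 at day 3 and in BALB/c at day 18. The signal of Uqcrfs1 was 7687, 7934 and 7810 on the BALB/c controls of day 3 and 4613, 5116 and 4123 on the BALB/c day 3 arrays, 6442, 7443 and 7350 against 4134, 4199 and 3638 in F1, and 8582, 8601 and 8613 against 4169, 5166 and 4990 in DBA. At day 18 it was 8150, 7023, 8067 and 7730 on the BALB/c controls against 3838, 4971, 4843 and 4611 on the treated arrays, and 9703, 9444 and 10720 against 5138, 3979 and 3979 in DBA. No treated array reached a control of its response. The changes were -0.76 ± 0.11, -0.82 ± 0.11, -0.85 ± 0.11, -0.76 ± 0.10 and -1.19 ± 0.11 (SE; adjusted p from 3.6e-09 to 7.8e-06). Uqcr10, a small subunit next to cytochrome c1, had the largest decrease in DBA, -1.19 ± 0.16 at day 3 (7526, 6774 and 7377 on controls, 2468, 3369 and 3719 on treated arrays) and -1.27 ± 0.16 at day 18 (9138, 9662 and 10160 and 4990, 4118 and 3108). Cyc1, cytochrome c1 itself, had log2 changes of -0.81, -0.65, -0.83, -0.64 and -1.06, with all treated arrays below all controls and the largest decrease of the complex in BALB/c at day 3. The 2 core proteins Uqcrc1 and Uqcrc2 had log2 changes of -0.51, -0.27, -0.70, -0.72 and -0.66 and of -0.74, -0.78, -0.82, -0.63 and -0.95, all called. Uqcrh, the hinge protein, was called in DBA at day 18 (-0.52). Uqcrb was called in no response on its brightest probe set (-0.52, -0.52, 0.09, -0.48 and -0.39), where the groups overlapped in the 3 day 3 responses, and its other probe set had log2 changes of -0.56, -0.54, -0.54, -0.24 and -0.84, called in 4 responses.

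Cycs, cytochrome c, carries electrons between complexes III and IV and also triggers caspase activation when it leaves the mitochondrion. The signal of Cycs was 12500, 14780 and 13060 on the BALB/c controls of day 3 and 7722, 8234 and 7970 on the BALB/c day 3 arrays, 9886, 9409 and 12040 against 7356, 7225 and 6342 in F1, and 14820, 10850 and 12870 against 7067, 7594 and 8026 in DBA. The day 18 values were 9221, 11680, 10270 and 7369 on the BALB/c controls against 6656, 7453, 7542 and 5130 on the treated arrays, and 10560, 12230 and 11060 against 6604, 6267 and 6741 in DBA. Treated arrays were below all controls except in BALB/c at day 18, where the highest pair of treated arrays, 7453 and 7542, stood above the lowest control, 7369. The changes were -0.75 ± 0.15, -0.58 ± 0.15, -0.75 ± 0.15, -0.52 ± 0.13 and -0.78 ± 0.15 (SE; adjusted p from 8.5e-05 to 0.0031).

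Complex IV, cytochrome c oxidase, moved in part: 8, 8, 2, 10 and 9 of 16 members fell, and Cox6a2 rose in 2 responses. Its median changes were -0.45, -0.45, -0.26, -0.44 and -0.49. Without control replicate 2 the BALB/c day 18 response had 9 lower, 1 higher and a median of -0.26. In DBA at day 3 the count of 2 of 16 lay near the background, as 13.4% of all genes fell. The 2 were Ndufa4 (-0.48) and Cox5b (-0.46), but no complex IV member passed the test of a difference between the DBA and BALB/c responses at that time. Ndufa4, a subunit of complex IV that was long counted in complex I, fell in all 5 responses. The signal of Ndufa4 was 12390, 14210 and 13510 on the BALB/c controls of day 3 and 8609, 9593 and 9399 on the BALB/c day 3 arrays, 10610, 14110 and 13620 against 7754, 7685 and 7008 in F1, and 13500, 12380 and 13870 against 8411, 9486 and 10610 in DBA. For day 18 it read 11250, 12220, 14160 and 13080 on the BALB/c controls against 8715, 9733, 10100 and 8815 on the treated arrays, and 14670, 15040 and 14530 against 8756, 7949 and 8004 in DBA. The groups did not overlap. The changes of Ndufa4 were -0.54 ± 0.11, -0.76 ± 0.11, -0.48 ± 0.11, -0.44 ± 0.09 and -0.84 ± 0.11 (SE; adjusted p from 5.5e-07 to 0.0013). Cox5b, which binds zinc, fell in all 5 (-0.46, -0.54, -0.46, -0.40 and -0.48), and Cox5a, Cox6b1, Cox6c, Cox7a2 and Cox8a fell in 4, all but DBA at day 3. Without control replicate 2 the BALB/c day 18 changes of Cox5a and Cox6c were -0.27 rather than -0.46 and -0.30 rather than -0.49, both still called.

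Several complex IV subunits come as pairs of isoforms, a common one and one of few tissues. Cox8a, the common form, gave 20510, 27870 and 25190 on the BALB/c day 3 controls and 14050, 14410 and 15640 on the treated arrays, a change of -0.73 ± 0.19 (SE; adjusted p = 0.0038). It had the largest decrease of the complex in BALB/c, also at day 18 (-0.70, or -0.46 without control replicate 2, which read 34310 against 17280, 17640 and 17380). Cox8b, the form of heart, skeletal muscle and brown fat, left out of the members, fell in all 5 responses, with changes of -1.54, -1.56, -1.73, -1.94 and -3.60, and every treated array was below every control. Cox8c, the testis form, read 277.9, 949.9, 249.2 and 293.5 on the BALB/c day 18 controls, with replicate 2 alone high, and its call there (-0.62, adjusted p = 0.036) was lost without that array (-0.20, adjusted p = 0.23). Cox7a2, the common form, had log2 changes of -0.52, -0.52, -0.35, -0.56 and -0.72 and was called in 4 responses, with -0.26 ± 0.09 (adjusted p = 0.021) in BALB/c at day 18 without control replicate 2. Cox7a1, its partner in muscle and brown fat and also left out, had log2 changes of 0.23, -0.52, -0.69, 0.19 and -1.53 and was called in DBA at day 18 alone. Its day 18 response in DBA was also lower than that in BALB/c (log2 difference -1.72 ± 0.39, SE, limma adjusted p = 0.035). Strain and code series cannot be told apart in that comparison.

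Cox6a1, the common form, was called in BALB/c at day 18 (-0.52), a call lost without control replicate 2 (-0.21, adjusted p = 0.12). Cox6a2, the form of heart and skeletal muscle, was dim and rose in F1 and in DBA at day 18. Its signal was 86.1, 65.6 and 75.4 on F1 controls and 196.4, 202.1 and 136.6 on treated arrays (1.0 ± 0.35, adjusted p = 0.026), and 63.5, 167.8 and 105 against 164.1, 311.9 and 216 in DBA at day 18 (0.93 ± 0.35, adjusted p = 0.03). The F1 groups did not overlap, while in DBA the lowest treated array, 164.1, was below the highest control, 167.8. The F1 call was lost with Xist in the fit (0.54, adjusted p = 0.33). In BALB/c at day 18 the change was 0.35 and not called, or 0.77 and called (adjusted p = 0.011) without control replicate 2. Over all settings the adjusted p ran from 0.00036 to 0.33 in F1 and from 0.0012 to 0.17 in DBA at day 18. Cox6b1 had log2 changes of -0.38, -0.48, -0.28, -0.44 and -0.74 and its testis partner Cox6b2 of -0.29, -0.23, 0.20, -0.27 and -0.64, where the BALB/c day 18 value was -0.36 and called (adjusted p = 0.037) without control replicate 2. Cox4i1 had log2 changes of -0.53, -0.41, -0.39, -0.66 and -0.66, called in 3 responses, with -0.37 ± 0.10 (adjusted p = 0.0037) in BALB/c at day 18 without control replicate 2, and Cox4i2, the form of lung and of low oxygen, was called in F1 (-0.66 ± 0.22). Ndufa4l2, the hypoxia-induced relative of Ndufa4, was called in none (-0.45, -0.08, -0.05, 0.23 and 0.40), with overlapping groups in each response.

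Complex V, ATP synthase, fell in 11, 10, 11, 10 and 15 of 17 members, and the 10 of BALB/c at day 18 were 6 without control replicate 2, with a median of -0.21 rather than -0.41. Atp5b, the catalytic beta subunit, had the largest decrease in F1 at day 3. The signal of Atp5b was 20730, 24860 and 23720 on the BALB/c controls of day 3 and 11380, 13740 and 13390 on the BALB/c day 3 arrays, 13800, 19470 and 22010 against 10950, 10560 and 8144 in F1, and 21310, 15790 and 19580 against 14060, 14800 and 15170 in DBA. At day 18 it was 13030, 15790, 14580 and 14060 on the BALB/c controls against 8769, 11080, 10800 and 10340 on the treated arrays, and 16050, 16790 and 17620 against 10850, 9777 and 10620 in DBA. All treated arrays were below all controls, although the DBA day 3 change missed the threshold. The changes were -0.85 ± 0.14, -0.88 ± 0.14, -0.35 ± 0.14, -0.49 ± 0.13 and -0.69 ± 0.14 (SE), with adjusted p values of 4.9e-05, 3.1e-05, 0.067, 0.0024 and 0.00029. Of the other soluble head subunits, Atp5a1 (alpha), Atp5c1 (gamma) and Atp5d (delta) fell in all 5 responses (-0.63, -0.60, -0.39, -0.50 and -0.68 for Atp5a1), and Atp5e (epsilon) in DBA at day 18 (-0.54). Atp5o, the stalk protein that gives oligomycin sensitivity, fell in all 5 (-0.54, -0.41, -0.73, -0.76 and -0.91) and led the complex in BALB/c at day 18. Without control replicate 2 its change there was -0.56, and that of Atp5c1 was -0.58.

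The members of the membrane part of complex V differed in what they did. Atp5md, a small subunit that links synthase dimers, had the largest decrease in BALB/c and DBA at day 3. Its DBA day 3 signals were 8936, 8943 and 10400 on controls and 2807, 3786 and 3455 on treated arrays, a change of -1.49 ± 0.33 (SE; adjusted p = 0.0011), the largest of any member in a response. In BALB/c at day 18 the Atp5md groups overlapped, with 4838, 2827, 7570 and 6989 on controls and 6298, 5358, 6052 and 2556 on treated arrays (-0.12 ± 0.28). Atp5mpl, another small membrane subunit, had the largest decrease in DBA at day 18, from 6439, 6845 and 7836 to 3227, 3045 and 2513 (-1.26 ± 0.29, adjusted p = 0.00084), and its log2 change in BALB/c at day 18 was 0.22, or -0.18 without control replicate 2, which turns its sign. The 3 genes Atp5g1, Atp5g2 and Atp5g3 encode the same mature c subunit of the rotor ring. Atp5g1 was called in none of the responses (0.03, 0.11, -0.09, -0.07 and -0.11), and its treated and control arrays overlapped in all 5. Atp5g2 was called in DBA at day 18 (-0.36) and Atp5g3 in BALB/c at day 18 (-0.54), a call lost without control replicate 2 (-0.20, adjusted p = 0.21).

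The 8 assembly factors of complex I, which are not part of the finished enzyme, fell in 5, 4, 6, 6 and 7 cases. Ndufaf1, which helps build the membrane arm, fell in all 5 responses and had the largest decrease in F1 and DBA at day 3. Its signals in F1 were 1475, 1512 and 1407 on controls and 961.2, 836.1 and 921.4 on treated arrays, and its changes were -0.54 ± 0.16, -0.68 ± 0.16, -0.72 ± 0.16, -0.65 ± 0.14 and -1.0 ± 0.16 (SE). Ndufaf3 and Ndufaf4, which act together on the quinone arm, fell in all 5 as well (-0.59, -0.28, -0.64, -0.45 and -0.72 and -0.52, -0.55, -0.53, -0.71 and -0.58). Ndufaf5, which hydroxylates Ndufs7, had the largest decrease in DBA at day 18 (926.9, 933.7 and 1006 on controls, 467.6, 364.9 and 503 on treated arrays, -1.07 ± 0.17), and its log2 change in BALB/c at day 3, where its groups overlapped, was -0.14. Ndufaf8 was called in none, with changes from -0.23 to 0.00.

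**Figure D2:**
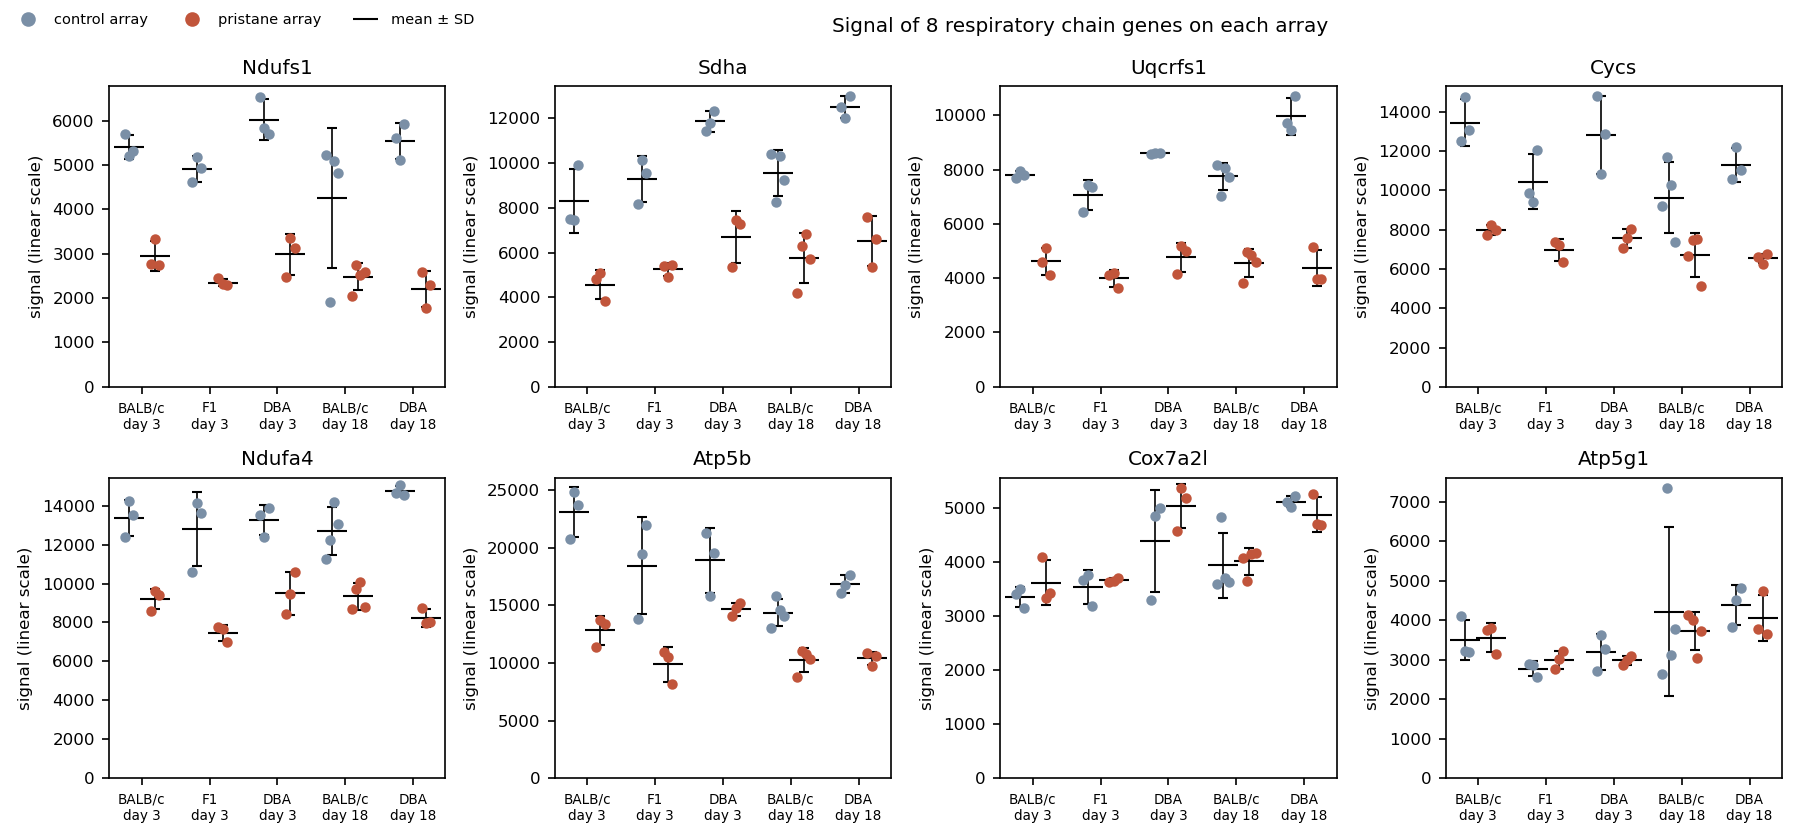
Signal of 8 members on each array (linear scale from 0), for the 5 responses. Points are arrays and bars are the mean ± SD. Ndufs1, Sdha, Uqcrfs1, Cycs, Ndufa4 and Atp5b are lower on the pristane arrays, except for overlaps in BALB/c at day 18. There Ndufs1 has 1 low control at 1914, and the Cycs groups overlap. Cox7a2l and Atp5g1 overlap in every response.

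The 8 members that fell in no response were Ndufb1, Uqcrb, Cox6a2, Cox7a2l, Cox7c, Ndufa4l2, Atp5g1 and Ndufaf8. Cox7a2l, which joins complexes III and IV into supercomplexes, had 3 probe sets and was called on none. The signal of Cox7a2l was 3424, 3508 and 3148 on the BALB/c controls of day 3 and 4100, 3337 and 3436 on the BALB/c day 3 arrays, 3681, 3773 and 3188 against 3644, 3656 and 3708 in F1, and 3310, 4864 and 5010 against 4591, 5373 and 5187 in DBA. The day 18 values were 3598, 4844, 3717 and 3636 on the BALB/c controls against 4089, 3656, 4166 and 4168 on the treated arrays, and 5126, 5020 and 5232 against 5260, 4715 and 4690 in DBA. The groups overlapped in every response. The changes were 0.10 ± 0.13, 0.05 ± 0.13, 0.22 ± 0.13, 0.03 ± 0.11 and -0.07 ± 0.13 (SE; adjusted p from 0.2 to 0.83), and those of its other 2 probe sets lay between -0.10 and 0.21, with none called. Ndufb1, a small subunit of the membrane arm, rose in F1 from 127.4, 169 and 140.5 to 236.7, 332.6 and 204.8 (0.71 ± 0.18, adjusted p = 0.003). It also rose in BALB/c at day 18, from 244.7, 158.4, 267.1 and 289.6 to 377.7, 311.8, 306 and 360.3 (0.48 ± 0.16, adjusted p = 0.014). No treated array overlapped a control in either case, but the second call was lost without control replicate 2 (0.31, adjusted p = 0.076). Its F1 adjusted p ran from 0.00054 to 0.048 over all settings. Cox7c was read by 1 dim probe set with a mean signal of 153 and had log2 changes of -0.04, 0.08, 0.39, -0.05 and 0.42.

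Most members with several probe sets moved the same way on all of them. Of the 49 members with more than 1 usable probe set, all probe sets changed in 1 direction in 44, 45, 46, 44 and 45, and none was called in both directions. Of the 166 probe sets of members, 113, 99, 101, 112 and 135 were called lower. The matching shares over all kept probe sets, and over all genes with several, are not given, so these counts stand without a background. The probe sets used for 18 members carry the suffix _s_at or _x_at, which marks probes that may also bind related transcripts (Ndufab1, Cox8a and Cox7a2l are among them). The members are bright on this array, with 58 of 88 among the top 5% of genes by mean signal. Those 58 had median changes of -0.53, -0.52, -0.46, -0.52 and -0.69 and the other 30 had -0.47, -0.36, -0.55, -0.37 and -0.67, while all 651 genes of that brightness had -0.18, -0.22, 0.02, -0.21 and -0.14.

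Whether the strains and times differed was tested as a difference of responses. At day 3, 0 members passed limma's test of a difference between DBA and BALB/c (0.499% of all genes did), between F1 and BALB/c (0.223%) or between F1 and DBA (2.02%), with median differences of 0, 0.04 and 0.03. Between day 18 and day 3 in BALB/c, which lie in different code series, 0 members passed either (0.361% of all genes did), with a median of 0.04. At an unadjusted p under 0.05 these 4 comparisons had 4, 2, 12 and 4 members, and the shares of all genes at that threshold were not taken. The 95% interval of such a difference had a median half-width of 0.39 to 0.41 log2 units and lay within 0.5 of no difference for 35, 35, 26 and 41 of the 88 members. For the other members the interval reached beyond 0.5, and the interval held 0 for 84, 86, 76 and 84 of the 88.

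The larger median decline of DBA at day 18 was set against both other responses. Against BALB/c at day 18, 76 of 88 members lay lower in DBA, with a median of -0.20 (-0.04 over all genes). An unadjusted p under 0.05 was found for 26, and the share of all genes at that threshold was not taken. In limma's adjusted test 0 members passed (smallest adjusted p 0.061, and 0.983% of all genes passed). Without BALB/c control replicate 2 the median was -0.32 and 6 members passed, and with arrays weighted by their quality 31 did. The share of all genes that passed was not taken in either setting. Against DBA at day 3, 76 members also lay lower, with a median of -0.22 (-0.06 over all genes), and 2 passed, where 4.19% of all genes did. They were Cox6b2 (-0.83 ± 0.23, SE, adjusted p = 0.035) and Ndufb6 (-0.58 ± 0.16, adjusted p = 0.039), a subunit of the membrane arm of complex I. Cox6b2 read 544.9, 543.3 and 595.8 on DBA day 3 controls and 594.4, 609.6 and 743.6 on treated arrays, against 583, 597 and 656.4 and 400.5, 403 and 351.6 at day 18. Ndufb6 read 10740, 8917 and 10320 and 6109, 7134 and 7708 at day 3, against 8723, 8994 and 9876 and 4766, 4150 and 4001 at day 18. Cox6b2 was lower on treated arrays at day 18 alone, and Ndufb6 at both times. Over all settings the adjusted p ran from 0.00088 to 0.12 for Cox6b2 and from 0.00071 to 0.38 for Ndufb6. The 2 DBA responses come from different code series, and time and series cannot be told apart there. The BALB/c and DBA responses at day 18 also come from different code series, so strain and series cannot be told apart between them.

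Few members were called between untreated mice of the strains. Between the DBA and BALB/c controls of the day 3 series, Sdha was higher in DBA by 0.53 ± 0.16 (SE; adjusted p = 0.045) and the assembly factor Ndufaf4 was lower (log2 difference -0.51, adjusted p = 0.029), where 7.66% of all genes were called, and the median over the members was -0.01. The control signals of Sdha were 7510, 7470 and 9933 in BALB/c and 11430, 11810 and 12330 in DBA, and those of Ndufaf4 2048, 1911 and 1780 and 1285, 1250 and 1492. In both genes the strains did not overlap. F1 controls lay below the mean of the parental controls in 84 of 88 members, with a median of -0.22 (0.02 over all genes). An unadjusted p under 0.05 was found for 37, and the share of all genes at that threshold was not taken. Only Ndufa8 passed, at -0.36 ± 0.07 (SE; adjusted p = 0.019; 0.307% of all genes passed), from 5781, 6369 and 5868 in BALB/c, 6393, 5503 and 6733 in DBA and 4628, 4539 and 5060 in F1. The F1 controls were low and the parental controls high in Xist, and with Xist in the fit 0 members passed and the median was -0.17.

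Pathways that feed the chain fell with it. These lists were chosen with earlier results of these arrays known and are described by their counts. All 17 genes tested of the TCA cycle and pyruvate dehydrogenase fell in BALB/c at day 3 and at day 18 in both strains, and 16 fell in F1 and DBA at day 3. Their medians were -0.78, -0.85, -0.77, -0.76 and -1.20, each lower than that of the members. Pcx, which makes oxaloacetate from pyruvate, had log2 changes of -1.39 ± 0.43 in BALB/c at day 3 and -2.15 ± 0.43 in DBA at day 18, and Dlat, the acetyl transfer subunit of pyruvate dehydrogenase, of -1.36, -1.02, -1.44, -1.12 and -1.98. Cs, the message of citrate synthase, had log2 changes of -1.0, -0.85, -0.77, -0.76 and -1.17. Of 15 fatty acid oxidation genes, 14, 14, 12, 14 and 14 fell, with medians of -0.92, -0.81, -0.75, -0.88 and -1.34. Cpt2, of the inner carnitine transferase step, had log2 changes of -1.24, -1.26, -0.72, -1.52 and -2.11, and Acads, the short-chain acyl-CoA dehydrogenase, of -1.03, -1.04, -1.06, -1.36 and -1.73. Cpt1a, the outer and rate-setting step, rose in BALB/c at day 3, DBA at day 3 and BALB/c at day 18 (0.42, 0.50 and 0.42), and had log2 changes of 0.36 and 0.33 in F1 and in DBA at day 18, where it was not called.

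For the genes that build the chain the medians lay nearer 0. Of 28 assembly factors of complexes II to V, 16, 9, 16, 16 and 20 fell and 0, 0, 0, 0 and 1 rose. Sdhaf3, an assembly factor of complex II, had log2 changes of -1.0, -1.13, -1.05, -0.98 and -1.44, and Atpaf2, of complex V, of -0.86, -0.72, -0.85, -1.18 and -1.65, and the one that rose was Sco2, a copper carrier for complex IV (0.55 ± 0.17). Of 18 import, chaperone and carrier genes, 9, 11, 8, 10 and 11 fell, among them Timm50 of the inner membrane translocase (-0.62, -0.49, -0.80, -0.72 and -0.95) and the chaperone Hspa9 (-0.65, -0.53, -0.58, -0.81 and -0.70). Tomm22 rose in F1 (0.34 ± 0.09). The 76 proteins of the mitochondrial ribosome, which translates the chain subunits encoded in mitochondrial DNA, fell in 41, 18, 52, 50 and 58 cases, with medians of -0.29, -0.16, -0.42, -0.38 and -0.44, where 17.2%, 18%, 13.4%, 22.2% and 25% of all genes fell, so the F1 count lay near the background. Mrps6 had the largest decrease there in BALB/c and F1 at day 3 and in both strains at day 18 (-1.03, -0.98, -0.75, -0.98 and -1.81). ND5, the 1 mitochondrial DNA gene with a probe set of its own, was called in no response, with changes of -0.53, -0.69, -0.06, -0.58 and -0.62, and -0.10 in BALB/c at day 18 without control replicate 2. Without that array the BALB/c day 18 counts of lower genes were 17 for the TCA cycle, 14 for fatty acid oxidation, 18 for assembly, 12 for import and 53 for the ribosome.

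**Figure D3:**
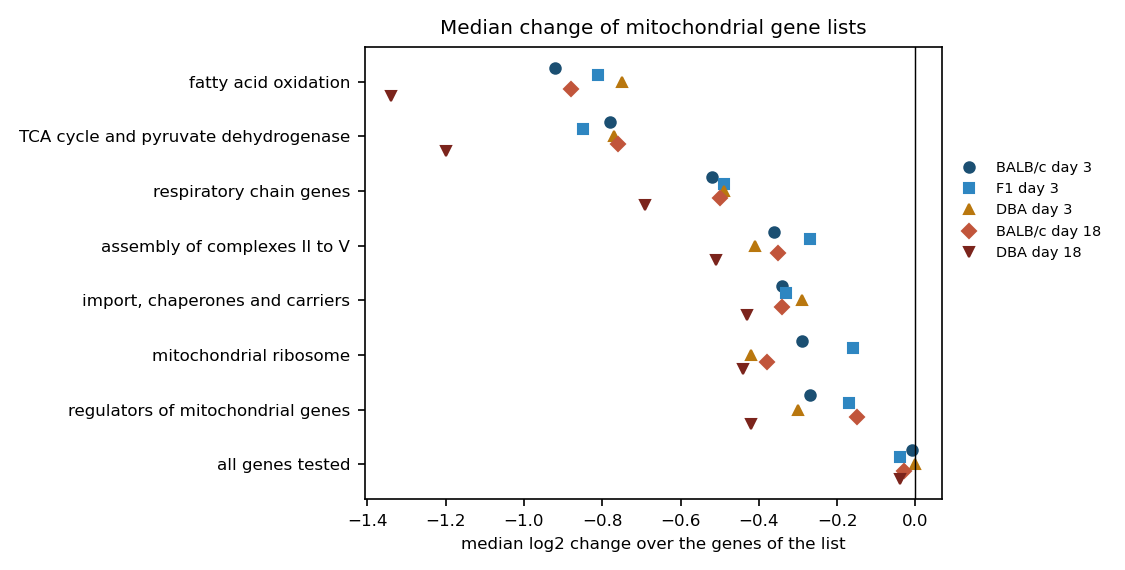
Median log2 change over the genes of each mitochondrial list in the 5 responses, with all 13016 genes tested at the bottom. One marker is 1 response. Fatty acid oxidation (-0.75 to -1.34) and the TCA cycle (-0.76 to -1.20) lie left of the respiratory chain genes (-0.49 to -0.69), and all genes lie between -0.04 and 0.

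Of 12 regulators of mitochondrial genes, 4, 5, 6, 4 and 5 fell and 1, 0, 1, 1 and 2 rose. Of all genes tested, 17.2%, 18%, 13.4%, 22.2% and 25% fell and 18.3%, 18.6%, 16.4%, 21.7% and 22.4% rose. Ppargc1a, the coactivator that drives mitochondrial biogenesis, had log2 changes of -1.20 ± 0.29, -1.37 ± 0.29, -1.05 ± 0.29, -0.77 ± 0.25 and -1.65 ± 0.29 (SE; adjusted p from 4.3e-05 to 0.015), with treated arrays below controls in all but BALB/c at day 18. Ppara, the fatty acid receptor that switches on fatty acid oxidation, had log2 changes of -0.83 ± 0.24, -1.14 ± 0.24, -1.13 ± 0.24, -1.10 ± 0.21 and -2.12 ± 0.24 (SE; adjusted p from 6e-08 to 0.0074). Both fell in all 5 responses. Ppargc1b fell in F1 and DBA, and had log2 changes of -0.37 and -0.29 in BALB/c at day 3 and day 18. Esrra, an oestrogen-related receptor, fell in the 3 day 3 responses (-0.72, -0.72 and -0.69), and had log2 changes of 0.00 and -0.39 at day 18 in BALB/c and DBA, where it was not called. Pprc1, another coactivator of this family, rose in BALB/c at day 3 (0.70), DBA at day 3 (0.87) and DBA at day 18 (0.83), and in BALB/c at day 18 it was 0.10, or 0.44 and called without control replicate 2. The DNA-binding factors Nrf1 (0.34, 0.08, 0.01, 0.07 and 0.14) and Gabpa (0.08, -0.12, 0.09, 0.11 and -0.11) were called in no response, and Gabpb1, the partner of Gabpa, rose at day 18 in BALB/c (0.28, or 0.15 and not called without control replicate 2) and DBA (0.41). Tfam, which packages mitochondrial DNA, was called in none (-0.02, 0.07, 0.01, -0.07 and 0.17), and so was Tfb1m (-0.23, -0.03, -0.25, -0.22 and -0.45). Tfb2m and Polrmt, which transcribe mitochondrial DNA, had log2 changes of -0.32, -0.45, -0.39, -0.57 and -0.64 and of -0.41, -0.22, -0.36, -0.50 and -0.47, and each fell in 4 responses.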

How the data were processed

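Mesentery RNA of 32 samples (1 µg each) was hybridised to Affymetrix Mouse Genome arrays, per the labels' protocols. The deposited values are intensity signals made by the authors with MAS5 in GCOS, per the submitters' processing notes, which name no version. They are linear, and the trimmed mean (2% off each end) was 500 on every array, so total RNA per cell is not kept. Array medians ran from 90.6 to 135, and 13 values were 0. Precision is limited by the 3 or 4 arrays a group.

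Of 45101 probe sets, 34958 carried 1 symbol in the platform annotation, 932 several and 9211 none, and the 64 array controls were left out. All 90 members matched RefSeq by gene ID. Probe sets above the median of all values (103.7) on at least 3 arrays were kept (23198), and the brightest stood for its gene. The log2(signal + 24.9), the offset being the 25th percentile of all values, entered a linear model (limma 3.58.1, R 4.3.3) holding a mean for each of the 10 combinations of group and code series and an eBayes intensity trend (22 residual degrees of freedom). Tests were two-sided, and p-values were adjusted by Benjamini-Hochberg over 13016 genes. The fit was tested on simulated data.

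The members and lists were chosen with earlier results of these data known. Named were the largest called decrease and increase of each class in each response, all complex II genes, Cycs, Cyc1, isoform partners, members called in a difference between responses or controls, all regulators and up to 2 called genes per direction of each other list. Some further members and Cs were named after their values were seen. The alternatives changed the offset, dim filter, normalization, arrays in the fit, code series term, moderation, array weights, choice of probe set, beta-actin ratio and single arrays. The Xist term was chosen after seeing the data.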

Additional observations from a re-analysis of the deposited data

Results flagged for a closer look

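In groups of 4 arrays, 1 array lay far from the other 3 (Dixon's test at 95%) in 11 of 78 pairs of a named gene and a group, where chance gives about 5%. In 10 of the 11 pairs that array was BALB/c control replicate 2, the array with the pancreatic acinar markers at 16.91 (log2). It was low for Ndufs1 (log2 level 10.92, the other controls 12.24 to 12.36) and Sdhc (11.18, others 12.72 to 12.89). It was high for Cox8a (15.07, others 14.08 to 14.11), Cox4i1 (14.97, others 13.73 to 13.82), Cox6a1 (15.3, others 13.95 to 14.11), Cox7a2 (15.36, others 14.07 to 14.29), Cox7a2l (12.25, others 11.82 to 11.87), Cox8c (9.93, others 8.1 to 8.31), Atp5g3 (15.51, others 14.07 to 14.18) and Atp5o (14.13, others 13.26 to 13.38). The 11th pair was Cox7a2l in BALB/c at day 18, where treated replicate 2 stood at 11.85 and the other 3 arrays at 12.01 to 12.03.

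The DBA response differed between day 18 and day 3, by limma's test of that difference, for Cox6b2 (-0.83, adjusted p = 0.035) and Ndufb6 (-0.58, adjusted p = 0.039). Time and code series cannot be told apart in that comparison.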

How the results depend on the processing

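Of 285 called values of named genes, 201 kept their call and direction under every setting, 84 lost it under at least 1 and 0 reversed. Of 432 values not called, 114 were called under some setting, 2 of them with the opposite sign: Sdhd in DBA, day 18 against day 3 (0.5 without the code series term, -0.07 with it), and Atp5g3 in DBA at day 3 (0.37 with the beta-actin ratio, -0.08 without it). The counts below moved by over 1.5 times, and the cause was not tested unless the setting itself leaves out genes or arrays. The share of all genes called was not taken under these settings, except for BALB/c day 18 without control replicate 2.

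Without the dim filter, the DBA members lower at day 18 against day 3 numbered 1 and the DBA controls higher than BALB/c controls 0. With the stricter filter, 0 were higher in F1, BALB/c day 18 and DBA day 18. Median centring left 1 lower in DBA, day 18 against day 3, and brought the members lower to 67, 62, 60, 72 and 76, with the median of all genes at -0.10, -0.14, -0.10, -0.11 and -0.08. Quantile normalization called 1 higher in F1 against DBA at day 3 and 6 lower in DBA against BALB/c at day 18. Separate fits called 38 lower and 0 higher in BALB/c at day 18 and 3 lower in DBA controls. Without the code series term, 3 were higher in DBA at day 18, 2 lower and 2 higher in BALB/c day 18 against day 3, 14 lower and 5 higher in DBA day 18 against day 3, 0 lower and 4 higher in DBA controls, and 3 lower in F1 controls. Without the intensity trend, and in the ordinary linear model, 0 were higher in DBA controls. Array weights called 2 higher in DBA at day 3, 1 lower and 4 higher in DBA against BALB/c at day 3, 9 lower and 3 higher in F1 against DBA, 31 lower in DBA against BALB/c at day 18, 1 higher (BALB/c) and 26 lower (DBA) in day 18 against day 3, 6 lower and 3 higher in DBA controls, and 25 lower and 1 higher in F1 controls. The mean over probe sets called 2 lower in DBA against BALB/c at day 18 and 3 higher in DBA controls. The beta-actin term called 1 (BALB/c) and 4 (DBA) higher at day 3, 2 in DBA at day 18, 1 in F1 against DBA, 1 lower in DBA against BALB/c at day 18 and 13 lower in DBA day 18 against day 3. With the Xist term, 1 was higher in F1 at day 3 and 0 lower in F1 controls, and 51 fell in F1.

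With single arrays left out, the members lower ran from 53 to 73 in BALB/c, 41 to 70 in F1 and 44 to 67 in DBA at day 3, and at day 18 from 59 to 72 (BALB/c) and 69 to 79 (DBA). The members higher ran from 0 to 0, 1 to 2, 0 to 1, 1 to 1 and 0 to 2. Differences ran from 0 to 1 in each direction for F1 against DBA, 0 to 6 lower for DBA against BALB/c at day 18, 0 to 3 lower for DBA day 18 against day 3, 0 to 1 lower and 0 to 2 higher for DBA controls and 0 to 4 lower for F1 controls. No paired analysis was possible because the labels give groups no shared replicate numbers.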
